A study of Homo sapiens with 8 samples.

Results

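The matrix metalloproteinases (MMPs), their tissue inhibitors (TIMPs) and WTAPP1, a pseudogene transcript whose exons cross those of MMP1 on the other strand, were followed in the RNA-seq of side population (SP) and non-side population (NSP) cells. The 10 genes were taken from the 57820 genes of the count table by matching the Ensembl identifier, without its version, to the current symbol. They are MMP1, WTAPP1, MMP3, MMP10, MMP2, MMP14, MMP15, TIMP1, TIMP2 and TIMP3. They had been picked with the SP and NSP values of these same libraries known, so their differences between SP and NSP cells are given as a description, without a p-value.

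The cells were J82, an established line from a human bladder cancer, grown in serum-containing medium with no drug or genetic change named in the labels. FACS divided them into SP cells, which pump out the Hoechst dye, and NSP cells, which keep it, and the study compared them because it regards SP cells as the drug-resistant fraction. There were 4 SP and 4 NSP libraries, numbered 1 to 4 in each group, all from this one line. The labels do not state whether the replicates came from separate cultures, and the standard errors then measure only the spread between these libraries. An SP library held between 1431823 and 1697218 counts in total and an NSP library between 1489033 and 2073526. These are counts assigned to genes and not the sequencing depth. The paper states many times more raw reads per sample, and why so few were assigned was not tested. CPM values were computed by edgeR from the counts and the TMM-normalized library sizes. The dye efflux transporter ABCB1 was higher in SP cells (log2 fold change 2.96, standard error 0.38, adjusted p = 7.44e-04, edgeR's quasi-likelihood test). ABCG2, the other efflux transporter looked at, held 14 counts over the 8 libraries. Of 14 urothelial and epithelial markers, KRT8 had the most counts, KRT20 and UPK3A held 0 counts and EPCAM 3, and of 3 leukocyte genes PTPRC and CD3E held 0 and CD14 held 629. CD14 averaged 67.0 ± 22.7 CPM in SP and 34.2 ± 17.2 CPM in NSP libraries (SD, n = 4 each), which was not called and was called higher without the filter on low counts. The strand setting of the counting is not given in the sources used here, and the deposited counts could be of the strand opposite to the named gene. That would change what every level below belongs to, for genes without an annotated neighbour on the other strand as well.

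MMPs are zinc-dependent proteases that cut the proteins of the extracellular matrix. They are made as inactive precursors and are switched on by removal of a propeptide, often by another protease. TIMPs bind the active site of MMPs and block it. In tumours and in their stroma, the balance of the proteases and inhibitors governs how matrix is remodelled and how cells invade. MMP1 is a collagenase, which opens fibrillar collagen, MMP3 and MMP10 are stromelysins with a broad range of substrates, and MMP2 is a gelatinase. MMP14 and MMP15 are membrane-anchored, and MMP14 together with TIMP2 activates the MMP2 precursor at the cell surface.

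MMP1, MMP3 and MMP10 lie side by side on the minus strand of chromosome 11, and on the plus strand WTAPP1 runs past MMP10 and MMP1 and ends inside MMP3 (GRCh37; MMP1 at 102660132 to 102668891, MMP3 at 102706532 to 102714340, MMP10 at 102641233 to 102651359 and WTAPP1 at 102617699 to 102707497). By the GENCODE annotation, exons of WTAPP1 and MMP1 shared 223 bp, exons of WTAPP1 and MMP3 shared 32 bp and exons of WTAPP1 and MMP10 shared 0 bp. The sequences below show a place where a WTAPP1 exon crosses a coding exon of MMP1 and 1 where it crosses a coding exon of MMP3, because counts of these genes in the shared bases depend on the strand setting of the counting. They are read on the plus strand of GRCh37, the strand of WTAPP1, and capitals mark the bases that are also coding sequence of the MMP gene. The MMP1 gene reads the other strand of the same bases.
WTAPP1 across exon 6 of MMP1, chr11:102665879-102665955: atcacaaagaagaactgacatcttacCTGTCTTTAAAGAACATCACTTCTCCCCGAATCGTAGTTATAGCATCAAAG
WTAPP1 across exon 3 of the transcript MMP3-202, chr11:102707198-102707289: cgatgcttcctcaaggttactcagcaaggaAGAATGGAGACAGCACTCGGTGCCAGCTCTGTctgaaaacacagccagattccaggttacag
The first crossing covers 51 coding bases of MMP1, and the lower-case bases lie in no exon of MMP1. The other covers 32 coding bases of MMP3. A further crossing, of 73 bp, lies in an exon of a noncoding MMP1 transcript and is not shown.

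**Figure D1:**
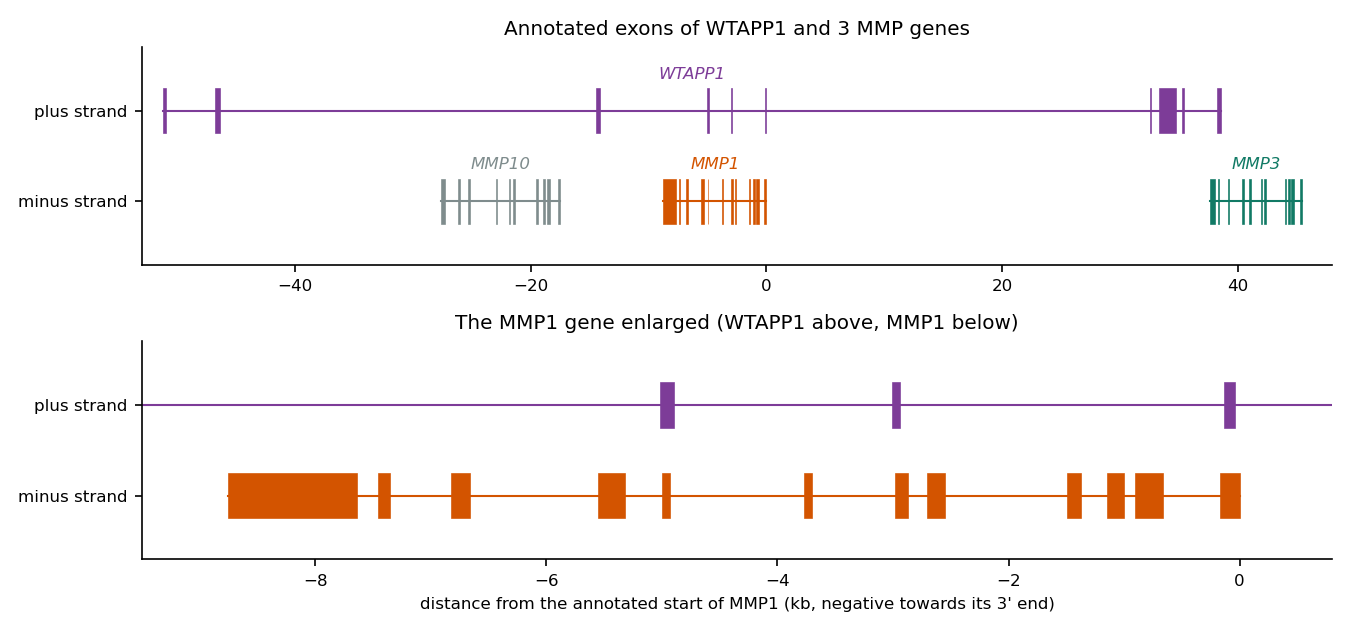
Map of the annotated exons (boxes) of WTAPP1 on the plus strand and of MMP10, MMP1 and MMP3 on the minus strand, against the distance in kb from the annotated start of MMP1, with the MMP1 gene enlarged in the lower panel. The 3 WTAPP1 exons inside MMP1 each meet an MMP1 exon, over 223 bp in all.

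Of the 10 genes, 6 had enough counts to be tested among the 9309 genes kept by edgeR's filterByExpr, and MMP1, MMP3, MMP10 and MMP2 did not. Among the 6, WTAPP1 and TIMP3 were called lower in SP cells and 0 were called higher, at an adjusted p under 0.05 and a fold change over 1.3. Over all tested genes, 2.03% were called lower and 1.63% higher, 3.66% in all. With the replicate number as a block, 652 genes were called lower and 548 higher in place of 189 and 152. Nothing is read from the 2 calls among the 6 genes, since the genes were picked on this contrast. The log2 fold changes of the 6 tested genes were all below 0, with a median of -0.58. Of all tested genes 48.2% had a log2 fold change below 0, and the median was 0.015. WTAPP1, MMP2, MMP14 and TIMP3 had every SP library below every NSP library. MMP2 was not tested, so 3 of the 6 tested genes had this order, beside 4.97% of all tested genes. The opposite order, seen in 0 of the 10 genes, held for 4.78% of all tested genes. In bulk libraries, fewer cells that express a gene and less RNA per cell cannot be told apart.

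**Figure D2:**
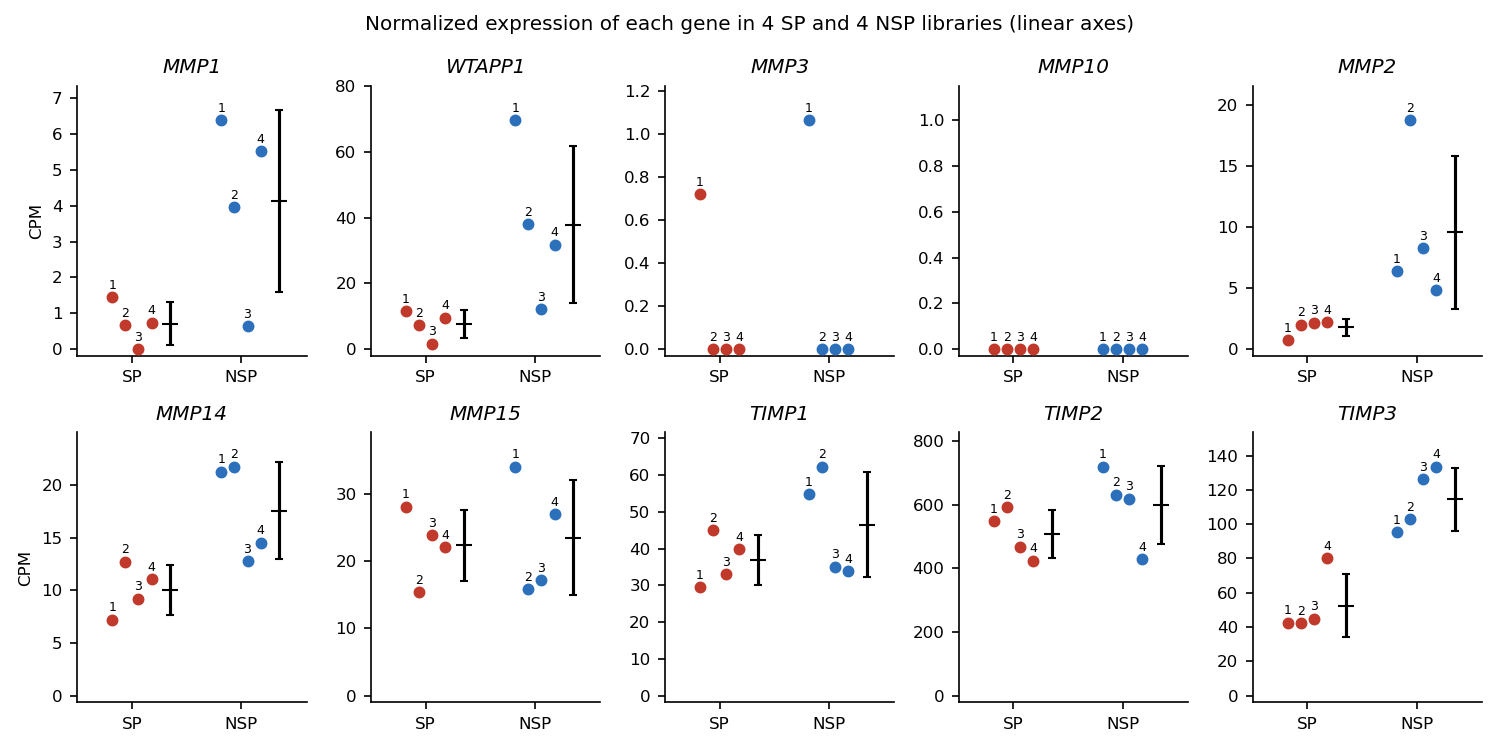
CPM of each gene (linear axis, its own scale in each panel) in the SP libraries (red) and NSP libraries (blue), with the replicate number beside each point. Bars are the mean and SD of 4 libraries and are left out for MMP3 and MMP10, which held 3 and 0 counts in all. The SP points lie below the NSP points without overlap for WTAPP1, MMP2, MMP14 and TIMP3.

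WTAPP1 (ENSG00000255282.2), a transcribed pseudogene, had 11.5, 7.37, 1.62 and 9.57 CPM in SP libraries 1 to 4. Its values in NSP libraries 1 to 4 were 69.7, 38.0, 12.1 and 31.8 CPM. All SP libraries lay below all NSP libraries, but SP library 1 and NSP library 3 were close, at 11.5 and 12.1 CPM. The log2 fold change of SP over NSP was -2.40 (standard error 0.49), on means of 7.52 ± 4.28 and 37.9 ± 23.9 CPM (SD, n = 4 each). NSP library 3 had the lowest value of the NSP libraries and SP library 3 the lowest of the SP libraries. The call was kept whichever library was left out, with log2 fold changes from -2.69 to -1.93.

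MMP1 (ENSG00000196611.4), the collagenase, held only 33 counts. The SP libraries 1 to 4 held 2, 1, 0 and 1 counts, and the NSP libraries 12, 8, 1 and 8. In CPM, SP cells had 0.712 ± 0.589 and NSP cells 4.13 ± 2.53 (SD, n = 4 each). NSP library 3, at 0.638 CPM, overlapped the SP libraries, and the other 3 NSP libraries lay above all of them. Fitted without a filter on low counts, the log2 fold change was -2.54 (standard error 0.74). With MMP1 and WTAPP1 summed to one gene, it was -2.41 (standard error 0.49). WTAPP1 held 316 counts and MMP1 33, so the sum mostly gives the value of WTAPP1 and is not an estimate for MMP1.

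MMP3 (ENSG00000149968.7) held 3 counts, of which 1 was in SP library 1 and 2 in NSP library 1. MMP10 (ENSG00000166670.5) held 0 counts in all 8 libraries. Counted on 13260182 counts in all, a count of 0 allows a level of up to 0.226 CPM, and this limit covers counting error only. With so few counts neither stromelysin could be compared between SP and NSP cells. MMP3 and MMP10 are close paralogs, and how multi-mapping reads were handled is not given in the sources used here.

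MMP2 (ENSG00000087245.8; chromosome 16 of GRCh37, 55423612 to 55540603, plus strand), the gelatinase, held 81 counts. The SP libraries 1 to 4 had 0.721, 2.01, 2.17 and 2.21 CPM, from 1 to 4 counts each. The NSP libraries had 6.38, 18.8, 8.29 and 4.84 CPM, from 7 to 38 counts each. The groups did not overlap, and NSP library 2 was the highest of all. MMP2 was left out by the filter on low counts. Without that filter its log2 fold change was -2.42 (standard error 0.48) and it was called lower in SP cells, and no annotated gene of the other strand crosses its exons. DESeq2 called it too, at -2.45. The filter kept it when any of 4 single libraries was left out, and it was then called in 3 of the 4 fits, with log2 fold changes from -2.61 to -2.17, and not without SP library 2, at -2.45.

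MMP14 (ENSG00000157227.8; chromosome 14, 23305769 to 23318250, plus strand), the membrane protease that activates MMP2, had 7.21, 12.7, 9.20 and 11.0 CPM in SP libraries 1 to 4. The NSP libraries had 21.3, 21.7, 12.8 and 14.5 CPM. The groups were separate by a narrow margin, since SP library 2 and NSP library 3 differed by 1 count (19 and 20 counts) and stood at 12.73 and 12.76 CPM. The log2 fold change was -0.82 (standard error 0.28), which was not called. With the replicate number as a block it was -0.79 (standard error 0.27) and was called. MMP15 (ENSG00000102996.4; chromosome 16, 58059658 to 58080805, plus strand), the other membrane-anchored member, averaged 22.4 ± 5.27 CPM in SP and 23.5 ± 8.60 CPM in NSP libraries (SD, n = 4 each). Its groups overlapped, and the log2 fold change of -0.07 (standard error 0.28) changed sign when SP library 2 or NSP library 1 was left out.

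TIMP3 (ENSG00000100234.11; chromosome 22, 33197691 to 33259028, plus strand), an inhibitor that stays bound to the matrix and also blocks some ADAM proteases, had 42.5, 42.2, 44.9 and 80.2 CPM in SP libraries 1 to 4. The NSP libraries had 95.2, 102.7, 126.3 and 133.4 CPM. SP library 4 stood apart from the other SP libraries but below every NSP library. The means were 52.5 ± 18.5 CPM for the SP and 114.4 ± 18.3 CPM for the NSP libraries (SD, n = 4 each), and the log2 fold change was -1.13 (standard error 0.21). It ranged from -1.40, without SP library 4, to -1.04, without SP library 2, and the call was kept. The gene lies inside SYN3, which is on the other strand and held 0 counts, and no exon of SYN3 crosses its exons.

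TIMP1 (ENSG00000102265.7; chromosome X, 47441807 to 47446188, plus strand) is a soluble inhibitor. It averaged 36.8 ± 6.86 CPM in SP and 46.5 ± 14.2 CPM in NSP libraries (SD, n = 4 each), with overlap between the groups and a log2 fold change of -0.35 (standard error 0.23). TIMP2 (ENSG00000035862.8; chromosome 17, 76849059 to 76921469, minus strand), the inhibitor that takes part in MMP2 activation, had the highest level per kb of the 10 genes. It averaged 508.3 ± 76.5 CPM in SP and 599.7 ± 122.0 CPM in NSP libraries (SD, n = 4 each), with 576 to 1352 counts per library. The groups overlapped, and the log2 fold change was -0.24 (standard error 0.17). Neither TIMP1 nor TIMP2 was called.

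**Figure D3:**
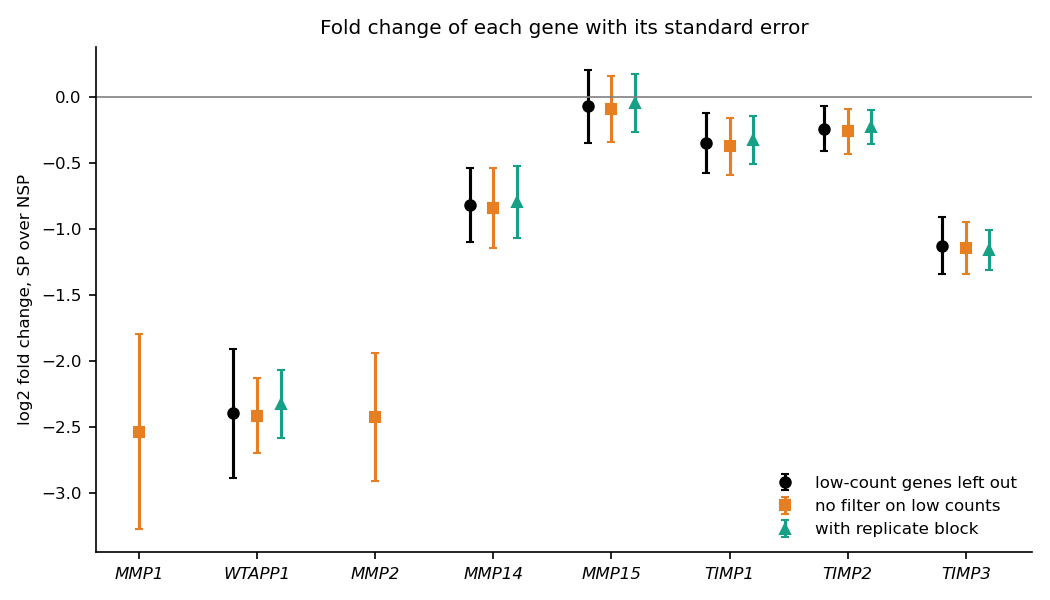
Log2 fold change of SP over NSP cells for 8 of the 10 genes, with its standard error, from edgeR with low-count genes left out (black), without that filter (orange) and with the replicate number as a block (green). MMP1 and MMP2 have a value only without the filter, at -2.54 and -2.42. TIMP3 is at -1.13, MMP15 at -0.07.

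SP and NSP libraries of the same number deviated together from their group means. The ratio of SP over NSP within each number shows how even the differences were. For WTAPP1 the log2 ratio was -2.60, -2.37, -2.90 and -1.73 for the numbers 1 to 4. For TIMP3 it was -1.16, -1.28, -1.49 and -0.73. Both genes were lower in the SP library of every pair. MMP2 had log2 ratios of -3.15, -3.22, -1.94 and -1.13, and MMP14 had -1.56, -0.77, -0.47 and -0.40, so their smallest differences were in pair 4 as well. TIMP1 was lower in the SP library of pairs 1 to 3 and higher in that of pair 4, where the log2 ratio was 0.23. MMP15 was higher in the SP library of pair 3 only, at 0.47.

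**Figure D4:**
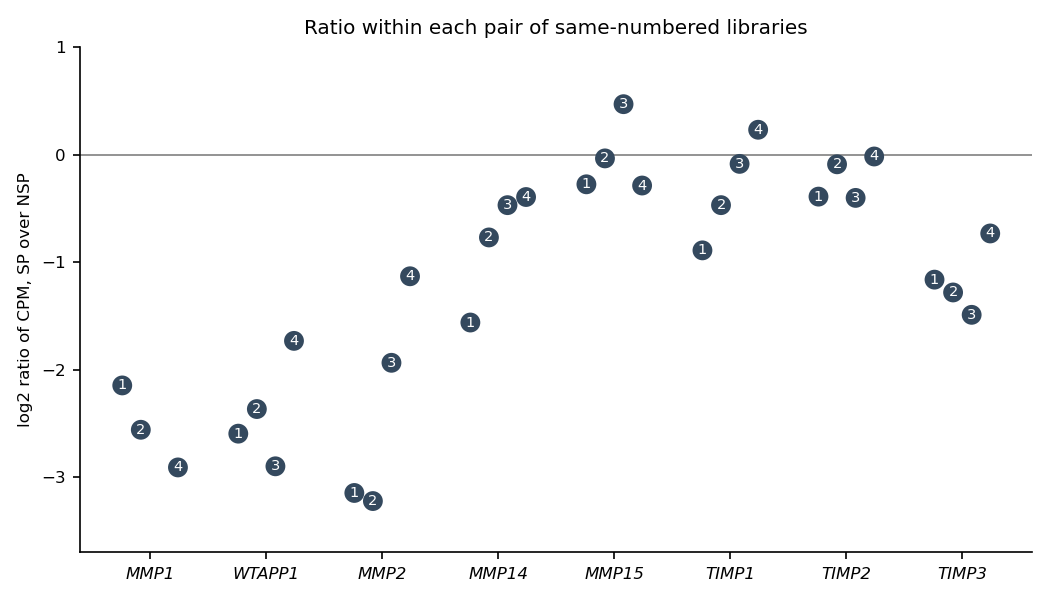
Log2 ratio of CPM in the SP library over that in the NSP library of the same number (the digit in each point), for 8 of the 10 genes. All points of WTAPP1, MMP2, MMP14, TIMP2 and TIMP3 lie below 0. MMP1 has no point for number 3, where the SP library held 0 counts.

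Levels of different genes were compared as CPM per kb of merged exon length. In NSP cells the order was TIMP2 (96.6 ± 19.7), TIMP1 (32.2 ± 9.83), TIMP3 (24.9 ± 3.99), WTAPP1 (11.4 ± 7.17), MMP15 (5.56 ± 2.03), MMP14 (3.80 ± 0.995), MMP2 (2.03 ± 1.34) and MMP1 (1.51 ± 0.926), as mean and SD of 4 libraries. The ranges of mean ± SD overlapped between TIMP1 and TIMP3 and between each neighbouring pair from WTAPP1 down to MMP1. In SP cells the level was 81.9 ± 12.3 for TIMP2, 25.5 ± 4.75 for TIMP1 and 11.4 ± 4.03 for TIMP3. MMP15 (5.28 ± 1.25) stood above WTAPP1 (2.26 ± 1.29) and MMP14 (2.17 ± 0.515) there, and the last 2 overlapped. MMP2 and MMP1 had 0.377 ± 0.151 and 0.260 ± 0.215 in SP cells and overlapped too. Among the 10 genes, all 3 inhibitors stood above all 6 proteases in both groups. This does not hold for the whole MMP family. MMP24, an MMP outside the 10 genes, had 77.5 ± 14.5 in NSP and 66.5 ± 9.77 in SP cells (SD, n = 4 each). Its means were above those of TIMP1 and TIMP3 in both groups.

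These orders hold only if the counts are of the named strand. As a calculation, all counts of WTAPP1 and MMP1 were exchanged. MMP1 would then have 13.8 ± 8.73 CPM per kb in NSP and 2.75 ± 1.56 in SP cells (SD, n = 4 each). That mean is above the deposited means of MMP14 and MMP2 in both groups and above that of MMP15 in NSP cells. If the opposite strand was counted, those deposited values would not be of these genes either, so no order is read from this. WTAPP1 would have 1.24 ± 0.761 and 0.214 ± 0.177. Only 223 bp of exon are shared, so counting of the opposite strand could move only reads in those bases to MMP1. The exchange therefore does not give the level of MMP1 in that case. As deposited, WTAPP1 held 316 counts against the 33 of MMP1, which is 90.5% of the pair (exact 95% binomial confidence interval 87.0% to 93.4%, counting error only). Per kb of exon, WTAPP1 had 7.87 times the counts of MMP1 (5.49 to 11.6 by the same interval). With all counts exchanged in the same calculation, MMP1 would hold the 316 counts and WTAPP1 the 33, and the ratio would be 0.0858. The ratio of the counts was 10.8 in SP cells, from 43 and 4 counts, and 9.41 in NSP cells, from 273 and 29 counts. A further pseudogene, ENSG00000225678, shares 83 bp of exon with WTAPP1 on the other strand and held 6 counts. In each library with MMP1 counts WTAPP1 had more counts per kb, by 4.73 to 15.6 times.

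TIMP2 showed the same order with a gene that lies wholly inside its exons. The lncRNA ENSG00000267601 (chromosome 17, 76851560 to 76851926, plus strand) has 367 bp of exon, all of it across exons of TIMP2. It held 29203 counts against 7308 for TIMP2, and 67.6 times the counts per kb, with ratios of 58.6 to 80.8 in single libraries. It averaged 1894 ± 252 CPM in SP and 2545 ± 355 CPM in NSP libraries (SD, n = 4 each), and its log2 fold change was -0.43 (standard error 0.16), which was not called. With both summed, the log2 fold change of TIMP2 was -0.39 (standard error 0.16), also not called. Across the table, 595 lncRNAs with at least 50% of their exon length in exons of a protein-coding gene of the other strand had at least 100 counts with that gene, and 88.2% of them had more counts per kb than the gene. The median ratio over the 595 pairs was 36.7. From the counts alone, MMP1 and WTAPP1, and TIMP2 and ENSG00000267601, cannot be told apart in the shared bases, and whether the whole table was counted on the opposite strand was not tested further. For MMP2, MMP10, MMP14, MMP15, TIMP1 and TIMP3 no annotated exon of the other strand crosses an exon.

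**Figure D5:**
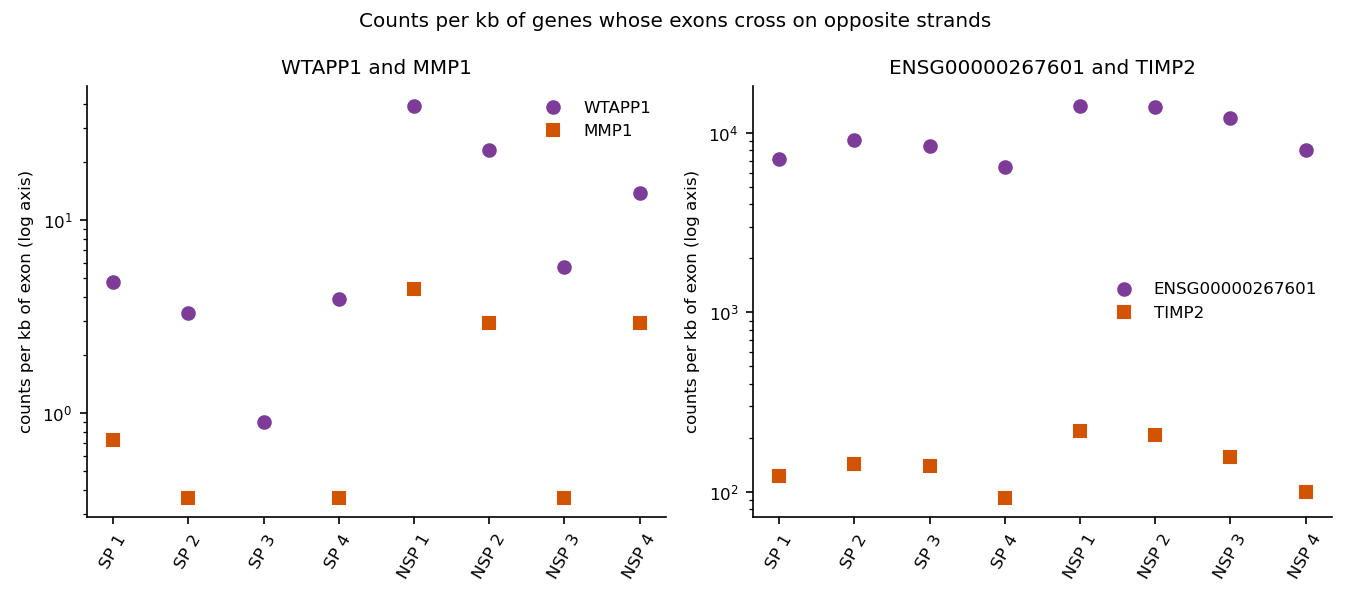
Counts per kb of exon (log axis) in each library for WTAPP1 and MMP1, and for ENSG00000267601 and TIMP2, which cross on opposite strands. The purple gene lies above the orange one in every library, and MMP1 has no point in SP library 3, where it held 0 counts.

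RefSeq promoter sequences (GRCh38.p14) were found for 5 of the 10 genes, MMP10, MMP14, MMP15, TIMP1 and TIMP3. There was no entry for MMP1, WTAPP1, MMP3, MMP2 and TIMP2. The 250 bases before the start were searched on both strands for the AP-1 site TGANTCA, the forkhead site GTAAACA, the GC box GGGCGG and the TATA box TATAAA, with no overlap between the letters of different motifs in these genes. The promoters of MMP10, which held 0 counts, and of TIMP3, which had no overlap between SP and NSP libraries, are shown because they carried different motifs. Capitals mark the matches, and both run to the base before the start.
MMP10, minus strand, chr11:102780629-102780878 of GRCh38.p14: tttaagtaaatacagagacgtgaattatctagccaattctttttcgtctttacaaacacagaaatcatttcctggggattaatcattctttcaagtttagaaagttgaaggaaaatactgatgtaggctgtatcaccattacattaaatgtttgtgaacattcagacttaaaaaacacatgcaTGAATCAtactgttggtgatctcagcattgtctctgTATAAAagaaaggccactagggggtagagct
TIMP3, plus strand, chr22:32801455-32801704 of GRCh38.p14: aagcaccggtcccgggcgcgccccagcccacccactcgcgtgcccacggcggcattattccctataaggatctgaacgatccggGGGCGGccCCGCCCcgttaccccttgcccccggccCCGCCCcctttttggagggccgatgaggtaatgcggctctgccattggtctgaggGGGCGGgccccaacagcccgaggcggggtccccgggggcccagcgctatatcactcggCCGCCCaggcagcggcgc
MMP10 held 1 AP-1 match, which begins 67 bases before the start, and 1 TATA match. An AP-1 match was present in 6.57% and a TATA match in 10.7% of the 35116 promoters of the table. The GC box was found 5 times in TIMP3, 5 times in MMP15, 2 times in TIMP1 and 1 time in MMP14, and 42.6% of all promoters held it. The forkhead site, the motif class of FOXC1, was found in 0 of the 5 promoters and in 2.98% of all. With so low a share, 0 of 5 cannot show a lack of the site. The paper made its motif search at enhancers away from gene starts, which were not searched here.

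The other genes of the pathway were read from the same edgeR fit by group alone, which leaves out the replicate number. With the replicate number as a block, more genes were called over the whole table. Calls with the block are not given for the lists, so "not called" refers to the fit by group alone. Of 18 further family members, the other MMPs and TIMP4, 16 matched an identifier of the table, 10 had at least 1 count and 3 were tested. MMP24, a membrane-anchored protease, averaged 291.0 ± 42.7 CPM in SP and 339.3 ± 63.3 CPM in NSP libraries (SD, n = 4 each), with a log2 fold change of -0.22 (standard error 0.17, adjusted p = 0.556, edgeR's quasi-likelihood test). MMP19 (log2 fold change -0.31, standard error 0.20) and MMP25 (log2 fold change 0.30, standard error 0.22) were not called either. An exon of the other strand crosses exons of each of these 3 genes. MMP9, the other gelatinase, and MMP8, a collagenase, held 0 counts, and MMP7 and MMP13 held 1 count each.

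Of 19 genes that activate MMPs or control them at the cell surface, 13 were tested, 2 were called lower and 0 higher in SP cells. Over all tested genes, 2.03% were called lower and 1.63% higher. All 13 log2 fold changes were below 0, as were 48.2% of those of all tested genes, with a median of -0.36. CD44, a hyaluronan receptor that can hold MMPs at the cell surface, fell from 111.4 ± 22.7 CPM in NSP cells to 44.4 ± 14.02 CPM in SP cells (SD, n = 4 each; log2 fold change -1.32, standard error 0.22, adjusted p = 0.00376, edgeR's quasi-likelihood test). Exons of 2 genes of the other strand cross those of CD44. CAV1, the main protein of caveolae, fell from 80.8 ± 8.77 CPM to 36.8 ± 11.9 CPM (SD, n = 4 each; log2 fold change -1.12, standard error 0.21, adjusted p = 0.00696, same edgeR test), and no exon crosses it. For both, every SP library lay below every NSP library. The urokinase receptor PLAUR was not called (log2 fold change -0.87, standard error 0.24, adjusted p = 0.0575 by the same edgeR test), nor was urokinase itself, PLAU (log2 fold change -1.21, standard error 0.39, adjusted p = 0.106). FURIN, which cuts the propeptide of membrane MMPs, had a log2 fold change of -0.09 (standard error 0.21), and BSG, an inducer of MMPs, one of -0.59 (standard error 0.18), both not called. Exons of PLAU and of BSG are each crossed by 1 gene of the other strand. Without the filter on low counts 5 of the 13 were called lower, PLAUR, PLAU and BSG beside CD44 and CAV1. Over all 26361 genes with a count, 381 were then called lower and 303 higher.

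Of 30 ADAM and ADAMTS proteases, relatives of the MMPs, 9 were tested and 0 were called in either direction, against 3.66% of all tested genes. Their median log2 fold change was 0.10. The best counted were ADAMTS5 (log2 fold change 0.47, standard error 0.29), ADAMTS1 (log2 fold change -0.47, standard error 0.28) and ADAM15 (log2 fold change 0.13, standard error 0.21). Without the filter on low counts 1 of the 9, ADAMTS2, was called higher (log2 fold change 1.32). Of 13 AP-1 and ETS factors, which regulate many MMP genes, 12 were tested, 1 was called higher and 0 lower. Over all tested genes these shares were 1.63% and 2.03%. ATF3, a stress-induced partner of AP-1 proteins, rose from 4.87 ± 1.86 CPM in NSP cells to 13.5 ± 5.34 CPM in SP cells (SD, n = 4 each; log2 fold change 1.45, standard error 0.37, adjusted p = 0.0423, edgeR's quasi-likelihood test). That call was lost with DESeq2 and when any of 6 single libraries was left out, with log2 fold changes from 1.2 to 1.48 in those fits. JUND, the AP-1 member with the most counts, had a log2 fold change of 0.23 (standard error 0.19) and FOSL1 one of -0.53 (standard error 0.33), both not called. Larger differences in both directions were also not called. They were -0.95 for ETV4 (standard error 0.32), -0.67 for ETV5 (standard error 0.29) and 0.61 for FOSL2 (standard error 0.21). An exon of the other strand crosses exons of ETV4.

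Mesenchymal markers were read beside these genes, because MMP2, TIMP3 and MMP14 are also genes of mesenchymal cells. Of 6 markers, 5 were tested, 1 was called lower and 0 higher in SP cells, against 2.03% and 1.63% of all tested genes. The summed level of the 6 was 302 to 465 CPM in the SP libraries and 510 to 883 CPM in the NSP libraries, and 0 of the 6 were at 0 counts. Most of this sum was VIM, at 314.6 ± 78.7 CPM in SP and 534.0 ± 168.2 CPM in NSP libraries (SD, n = 4 each), with overlap between the groups. CDH2 had a log2 fold change of -0.03 (standard error 0.24) and ZEB1 one of -0.46 (standard error 0.37), both not called. FN1, the matrix protein fibronectin, was the one called (log2 fold change -1.25, standard error 0.17, adjusted p = 8.63e-04, edgeR's quasi-likelihood test), and VIM had a log2 fold change of -0.76 (standard error 0.23), which was not called and was called lower without the filter on low counts. TWIST1 had a log2 fold change of 0.99 (standard error 0.29) in the other direction, also not called. Genes of the other strand cross exons of VIM (2 genes) and TWIST1 (1 gene). Of the urothelial and epithelial markers, 5 were tested and KRT7, whose exons 2 genes of the other strand cross, was called lower (log2 fold change -1.35, standard error 0.22). The part of these markers in the differences of WTAPP1, MMP2 and TIMP3 was not tested.

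The genes whose pattern over the 8 libraries was most like that of WTAPP1 and TIMP3 were named by the Pearson correlation of log2(CPM + 1), as a description. For WTAPP1 they were the lysosomal protease CTSB (r = 0.988), TSPAN31 (r = 0.984) and the matrix protein FBLN1 (r = 0.978). FBLN1 averaged 5.92 ± 3.05 CPM in SP and 17.8 ± 6.58 CPM in NSP libraries (SD, n = 4 each), and CTSB 124.2 ± 25.7 CPM and 187.5 ± 44.5 CPM. For TIMP3 they were ENSG00000183531 (r = 0.994), which has no symbol in the annotation used, the lysosomal lipase LIPA (r = 0.986) and P4HA3, a subunit of a collagen prolyl hydroxylase (r = 0.985). P4HA3 averaged 480.0 ± 84.6 CPM in SP and 964.6 ± 97.7 CPM in NSP libraries (SD, n = 4 each). These genes were picked for the highest r among all tested genes, and the 8 points share the division into SP and NSP libraries.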

How the data were processed

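The 8 RNA-seq libraries of J82 cells, 4 SP and 4 NSP, were made with a KAPA mRNA HyperPrep kit. The authors aligned the single-end reads to hg19 with STAR, assigned them to genes of gencode version 19 with featureCounts of the Subread package, and deposited raw counts per gene without normalization. The tool versions, the strand setting and the handling of multi-mapping reads are not given in the sources used here. Each library took its group and number from its title. Of 57820 identifiers, 55538 (96.1%) were found in GENCODE 44 lifted to GRCh37, which shares its coordinates with hg19 and gave symbols, positions and merged exon lengths. Besides the crossing in a noncoding transcript, 1 other exon crossing is not reported here.

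SP and NSP counts, as deposited, were compared by edgeR's quasi-likelihood test (version 4.0.16, R 4.3.3) by group alone, with TMM factors and genes kept by filterByExpr (count 10, total 15). A call needed an adjusted p (Benjamini-Hochberg over 9309 genes) under 0.05 together with a fold change over 1.3. The standard error is the size of the log2 fold change divided by the square root of F. Replicates differed by more than the sampling noise (chi-square per degree of freedom 5.61 to 13.5), so each was counted as 1 sample. The replicate numbers come from the titles, which do not say what they share. The deviations of same-numbered libraries from their group means correlated at 0.380, 0.203, 0.322 and 0.321 (replicates 1 to 4). Pairing was accepted on this ground. Calls and adjusted p-values are still those of the fit by group alone, unless another fit is named. The replicate block entered as an alternative fit. The others were DESeq2 1.42.0, its size factors within edgeR, upper-quartile normalization, no filter, at least 10 counts in every library, leaving out each library and summing genes that cross on opposite strands. Exchanging the counts of WTAPP1 and MMP1 was added after the data were seen.

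The 10 genes and the lists were chosen with earlier results of these data known. Named genes are the 10 genes, the genes of the other strand that cross their exons, the called genes of each list or else its 3 best counted, and the 3 most alike genes by correlation for WTAPP1 and TIMP3 (MMP1 and MMP10 were not tested). CD14, ADAMTS2, PLAU, PLAUR, FURIN, BSG, JUND, FOSL1, FOSL2, ETV4 and ETV5 and the genes named with few counts were chosen after their values were seen.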

Additional observations from a re-analysis of the deposited data

Results flagged for a closer look

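Of 40 sets of 4 replicate values, 6 had 1 value well away from the remaining 3. About 2 would be so by chance at 1 in 20. That figure does not hold for sets where 1 library alone held counts, as for MMP3, so 6 and 2 are not compared. The measure is the gap to the nearest library as a share of the range of the group. It was 0.929 for TIMP3 in SP cells, where replicate 4 was highest at 80.2 CPM, and 0.867 for MMP2 in SP cells, where replicate 1 was lowest at 0.721 CPM and held 1 count. It was 0.892 for ATF3 in NSP cells, where replicate 3 was highest at 7.65 CPM. It was 1 for MMP3 in SP cells and 1 for MMP3 in NSP cells, where replicate 1 was the only library of each group with a count, and 1 for the pseudogene ENSG00000225678 in NSP cells, where replicate 4 held 4 counts and the others 0.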

How the results depend on the processing

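The 10 genes called lower numbered 2, and 0 were called higher under every alternative run. Without a filter on low counts there were 4 lower (MMP1 and MMP2 beside WTAPP1 and TIMP3), since low-count genes are then tested. With at least 10 counts in every library there was 1, since WTAPP1 is then not tested. With genes that cross on opposite strands summed there were 4, since MMP1 and MMP3 then carry the counts of WTAPP1. Leaving out single libraries gave 2 to 3 lower and 0 higher. With the replicate block MMP14 was called at -0.79, and no other call among the 10 changed. Over all tested genes, 152 higher and 189 lower became 303 and 381 without a filter, 548 and 652 with the replicate block, and 69 to 164 higher and 89 to 181 lower without single libraries, the fewest without NSP replicate 2. The causes of the last 2 changes were not tested. MMP15 changed sign without SP replicate 2 (0.07) and without NSP replicate 1 (0.17), in a range from -0.23. The ratio of counts per kb of WTAPP1 to MMP1 was 7.24 to 8.88 without single libraries and 0.0858 with all counts of both genes exchanged. Of the values for single genes, 205 kept their direction and call, 8 lost the call (7 for ATF3 and 1 for MMP2), 1 gained it and 2 changed sign. MMP1 and MMP2, which the filter on low counts left out, were compared with their values without that filter. The 1 value so compared for MMP1 is its sum with WTAPP1, which holds mostly WTAPP1 counts. DESeq2 gave no adjusted p for MMP1. The ratio over exon bases free of other genes was not run, because the counts are per gene and not per base. With 33, 3 and 0 counts, MMP1, MMP3 and MMP10 are limited by the number of assigned counts.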
